A study of Mus musculus with 2 samples.

Results

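Neuron.4 is one of the 9 neuron clusters that the submitters defined in single-nucleus RNA-seq data of the mouse brainstem, and it was taken here as every nucleus that carried this label in their cell table. It held 453 of the 18281 nuclei, with 114 from the WT library and 339 from the HET library. HETs carried the knock-in allele Scn1a A1783V on one chromosome, a model of Dravet syndrome made by crossing Scn1a floxed males with Sox2-Cre females, so that the allele was present from the early embryo onwards in all tissues. WTs were wildtype littermates, and both groups were untreated C57Bl6 females taken at postnatal day 41. Nuclei came from frozen dissected brainstem and were profiled with the 10x Genomics 3′ v3.1 kit, which counts unique molecular identifiers (UMIs), each standing for one captured RNA molecule. There was 1 library per genotype, so no comparison between HETs and WTs has a replicate check and none was tested. The 95% intervals given for shares and ratios cover counting error only, and genotype cannot be told apart from animal or library.

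Scn1a encodes NaV1.1, the voltage-gated sodium channel that carries much of the current for action potential firing in many inhibitory and some excitatory neurons, and loss of its function underlies most cases of Dravet syndrome. Excitatory brainstem neurons load glutamate into synaptic vesicles through vesicular transporters, chiefly VGLUT2 (Slc17a6) in most of the brainstem and VGLUT1 (Slc17a7) in a smaller set of nuclei. Inhibitory neurons instead make GABA with the enzymes encoded by Gad1 and Gad2, or release glycine taken up by the transporter Slc6a5.

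All 453 nuclei fell into a single group of the submitters' finer clustering of transformed counts, a group of 454 nuclei in all, and all 453 were called neurons by the reference mapping that the submitters recorded. In the coarser grouping that they also deposited, 437 of the 453 lay in one group of 455 nuclei, and 5 groups held neuron.4 nuclei. Of the 23 barcodes that occurred in both libraries, 0 belonged to neuron.4. Summed over nuclei, neuron.4 gave 2024617 WT UMIs and 5140315 HET UMIs, which were 2.88% and 7.77% of all UMIs of those libraries.

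Nuclei of neuron.4 held much RNA, but not the most. Per nucleus, the median was 14738 UMIs in WTs (quartiles 8662 and 25645, range 2244 to 51420) and 12806 in HETs (quartiles 9335 and 19436, range 1989 to 46994). The ranges of the libraries overlapped, and the ratio of the medians was 0.869. The median number of genes detected per nucleus was 4716 in the WT and 4274 in the HET. Neuron.1, the largest cluster, had medians of 7753 (WT) and 8509 (HET) UMIs, whereas neuron.8 lay above neuron.4 with 27562 and 27182, though only 44 and 9 nuclei were in it. The name RNA-rich was therefore apt relative to neuron.1, neuron.2 and neuron.5, but neuron.4 ranked below neuron.8 in each library.

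**Figure D1:**
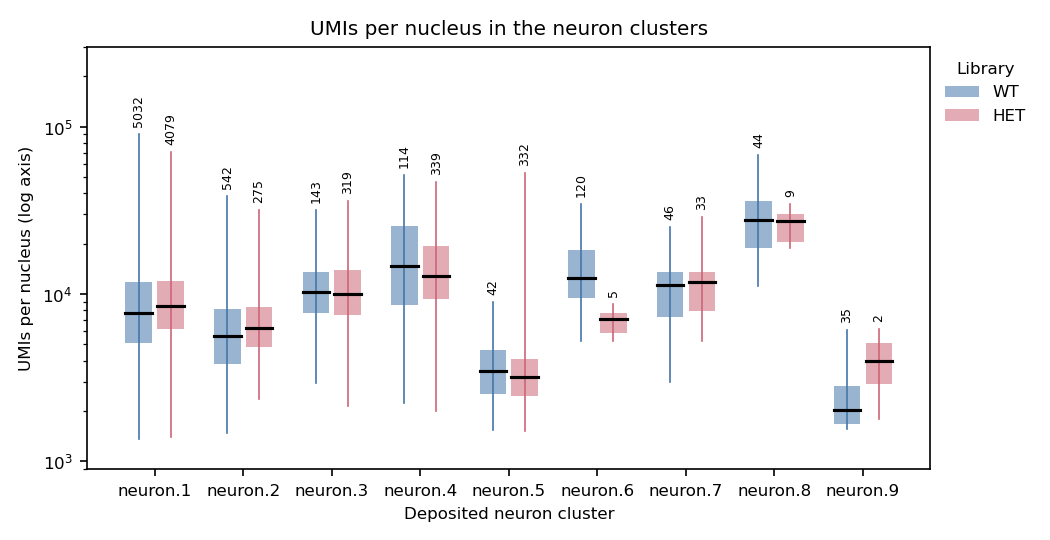
UMIs per nucleus (log axis) in each deposited neuron cluster, WT in blue and HET in red, with boxes for the quartiles, black lines for the medians, thin lines for the full range and numbers of nuclei above. Neuron.4 had medians of 14738 (WT) and 12806 (HET) UMIs, above neuron.1 (7753 and 8509) and below neuron.8 (27562 and 27182).

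Of 10923 genes with at least 50 UMIs in neuron.4, 413 (3.78%) were at least 2-fold above the other neuron clusters pooled in both libraries and 365 (3.34%) were at least 2-fold below. The clusters were made from the same counts, so these differences describe the cluster and were not tested. Values are CPM, the UMIs of a gene per 1000000 UMIs, after summing all nuclei of a cluster and library. Ranked by the smaller of its ratios in the libraries, the first gene was Fam107b, a member of the small FAM107 family, at 328 CPM in the WT and 359 CPM in the HET. The other neuron clusters had 4.02 and 8.31 CPM of it, log2 ratios of 6.35 and 5.43. Fam107b (chr2:3570488-3782142, plus strand, mm10) was detected in 77.2% (WT) and 73.7% (HET) of neuron.4 nuclei, against about 10% of oligodendrocyte nuclei in either library (10.2% and 9.82%), which are shallower.

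Among the 20 leading genes, Cdh23, the cadherin of hair cell tip links, was at 237 CPM in the WT and 243 in the HET, against 13.0 and 11.4 in the other neurons. The fibrillar collagen Col27a1 (chr4:63214004-63334991, plus strand) was at 355 and 195 CPM, against 9.03 and 12.7. Lama1, a laminin alpha chain, was at 154 and 170 CPM, and Adamts2, a procollagen-processing protease, at 311 and 306 CPM. The collagen Col12a1 had 116 and 103 CPM in neuron.4, against 12.7 and 11.2. Ndst4, which modifies heparan sulfate chains, had 720 and 776 CPM, against 119 and 144. Each of these genes was several-fold above the other neurons in both libraries.

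Among the others, Il1rapl2, of the interleukin-1 receptor accessory family, had 2197 and 2509 CPM in neuron.4, against 387 and 420 in the other neurons. Hcrtr2, the orexin receptor 2, had 193 and 272 CPM, against 37.3 and 46.0. Sv2b, a synaptic vesicle protein, had 427 and 474 CPM, against 92.6 and 107. Schip1, a cytoplasmic partner of axon initial segment proteins, was detected in 96.5% and 99.1% of the nuclei. Chd7, a chromatin remodeller, was at 201 and 249 CPM, and the 20 leading genes also held Slc17a7, Cpne9, Nfib, Fam163a, Lzts1, Gm34455 and Tanc1.

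Among the genes furthest below the other neurons, Gabrg3, a GABA-A receptor subunit, was at 22.2 CPM in the WT and 23.3 in the HET, against 584 and 610 (log2 ratios of −4.71 in each). Adarb2, of the RNA-editing enzyme family, was at 20.3 and 28.2 CPM, against 612 and 770. The transcription factor Pax2, which marks inhibitory lineages of the hindbrain, was at 0.988 and 1.75 CPM, against 44.1 and 38.0. Dgkk, Dlgap2, Kcnh8, Tox, Pde1a and the unnamed genes Gm26871 and Gm26713 made up the rest of the 10 lowest.

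Nfib, a nuclear factor I (NFI) gene, and Neurod genes were themselves high in neuron.4, so promoters of the leading genes were searched for motifs of these factor families and 3 are shown. RefSeq promoter windows (build GRCm38.p6, 250 bases before to 50 after a start site) were matched for 13 of the 20 leading genes. The NFI half-site TTGGCA, which reads TGCCAA when taken from the other strand, was found in windows of 4 of these 13 genes (30.8%), namely Col27a1, Gm34455, Il1rapl2 and Tanc1, against 16.1% of all 27025 genes with a window. The E-box CAGATG, which reads CATCTG when taken from the other strand, was found for 5 of 13 (38.5%), namely Adamts2, Cpne9, Fam107b, Gm34455 and Schip1, against 19.2% of all genes. Some genes have several windows, and a match in any of them counts for the gene. By window, the NFI half-site was in 22.7% of the 22 windows of the leading genes, against 14.1% of all 32851. The E-box was in 27.3%, against 17.2%. These are matches of letters, with no binding measured, and the sets are small. Capitals mark the matched letters, and all 3 windows are on the plus strand and read 5′ to 3′.
Fam107b, chr2:3713208-3713507, E-box: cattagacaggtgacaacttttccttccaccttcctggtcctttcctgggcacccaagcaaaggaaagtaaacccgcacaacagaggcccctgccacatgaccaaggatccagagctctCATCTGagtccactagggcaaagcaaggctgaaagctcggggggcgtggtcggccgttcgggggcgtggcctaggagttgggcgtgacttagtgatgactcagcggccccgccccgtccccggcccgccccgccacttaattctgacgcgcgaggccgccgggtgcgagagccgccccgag
Col27a1, chr4:63215162-63215461, NFI half-site: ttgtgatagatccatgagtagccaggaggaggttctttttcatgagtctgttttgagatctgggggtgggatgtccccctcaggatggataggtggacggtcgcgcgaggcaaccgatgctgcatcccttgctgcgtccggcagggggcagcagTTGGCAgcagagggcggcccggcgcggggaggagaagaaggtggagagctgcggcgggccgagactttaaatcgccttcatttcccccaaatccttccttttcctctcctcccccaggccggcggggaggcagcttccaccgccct
Il1rapl2, chrX:137570504-137570803, NFI half-site: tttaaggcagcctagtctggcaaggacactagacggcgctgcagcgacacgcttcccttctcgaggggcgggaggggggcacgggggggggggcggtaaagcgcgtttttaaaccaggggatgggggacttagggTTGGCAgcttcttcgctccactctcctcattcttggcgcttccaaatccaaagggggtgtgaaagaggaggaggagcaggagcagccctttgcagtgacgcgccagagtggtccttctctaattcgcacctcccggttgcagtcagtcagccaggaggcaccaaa

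The markers of transmitter identity placed the cluster among glutamatergic neurons. Slc17a7 (chr7:45163949-45176142, plus strand), which encodes VGLUT1, was at 154 CPM in the WT and 114 in the HET, against 1.80 and 10.4 in the other neurons. It was detected in 83.3% of neuron.4 nuclei of the WT (95% interval 75.2 to 89.7) and 74.0% of those of the HET (69.0 to 78.6). The share was 1.40% and 7.24% in the other neurons and 0.736% and 3.32% in oligodendrocytes, which should lack the gene. Thinned to 5000 UMIs per nucleus, the shares in neuron.4 were 53.6% and 44.5%, with 9 WT and 11 HET nuclei left out as shallower. Slc17a6, which encodes VGLUT2, was at 41.0 and 65.2 CPM, less than in the other neurons (74.8 and 85.3), and Slc17a8 (VGLUT3) had 0 UMIs in either library. Oligodendrocytes had 41.4 and 40.6 CPM of Slc17a6 and a UMI of it in 12.3% of nuclei in each library. In CPM, its level in WT nuclei of neuron.4 was no higher than in these cells, which should lack it. A UMI of it was found in 47.4% (WT) and 58.1% (HET) of neuron.4 nuclei, which are deeper. Thinned to 5000 UMIs the shares were 21.6% and 29.0%, against 11.1% and 12.8% in oligodendrocytes of at least that depth. What part of these UMIs is background was not tested. By nucleus, in the WT a UMI was found of Slc17a7 only in 55, of both transporters in 40, of Slc17a6 only in 14 and of neither in 5. In the HET these numbers were 98, 153, 44 and 44. Nuclei with both were the deepest, with medians of 22010 (WT) and 15876 (HET) UMIs.

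Inhibitory and other transmitter markers were low. Gad2 was at 10.9 CPM in the WT and 5.64 in the HET, against 70.2 and 74.4 in the other neurons, and the glycine transporter Slc6a5 at 8.89 and 4.86 CPM, against 100.1 and 72.2. The 3 cholinergic markers summed to 0.494 and 2.53 CPM, against 19.6 and 16.2, and Chat and Slc18a3 had 0 UMIs in the WT. The 6 serotonergic markers summed to 32.6 and 39.1 CPM, against 47.7 and 61.6. Tph2, Slc6a4, Fev and Htr1a had 0 UMIs in the WT and between 1 and 3 in the HET, whereas Slc22a3, a transporter also used by other cells, was at least 2-fold above the other neurons in both libraries. Counting a nucleus as glutamatergic when it had at least 5 UMIs of the vesicular glutamate transporters and at least 5 times those of each other class, 31 of 114 nuclei (27.2%) were so in the WT and 56 of 339 (16.5%) in the HET. As inhibitory, 0 and 1 nuclei met the same rule, and as cholinergic 0 and 0. The rest were unassigned, and with at least 3 UMIs and 3 times the glutamatergic share was 50.0% and 45.4%.

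Transcription factors set the cluster further apart. Nfib (chr4:82290173-82705750, minus strand), a nuclear factor I gene, was at 674 CPM in the WT and 791 in the HET, against 82.6 and 107 in the other neurons. Its relative Nfix was at 31.6 and 47.3 CPM, against 9.06 and 14.0. Of 20 hindbrain lineage factors with at least 50 UMIs, 6 were at least 2-fold above the other neurons in both libraries and 6 at least 2-fold below, against 3.78% and 3.34% over all genes. The lower ones included Meis2, Ebf1, Zfhx3, Zfhx4 and Tshz2. Genes of the zinc finger Zic family were above, with Zic1 at 50.9 and 35.4 CPM, against 11.1 and 17.5. Further factors are given here for their known part in hindbrain and cerebellar lineages, and were named after their values had been seen. Barhl1 was at 9.38 and 8.75 CPM, against 0.122 and 0.976, though with only 19 and 45 UMIs in neuron.4. Neurod2 was at 25.2 and 20.4 CPM, against 3.93 and 4.32, and Pax6 at 27.2 and 23.9 CPM, against 3.53 and 5.63. Tfap2b had 0 UMIs in either library.

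Several of these genes were also high in neuron.5, a cluster of 42 WT and 332 HET nuclei with medians of 3461 and 3189 UMIs. Slc17a7 was at 172 and 164 CPM in neuron.5, Nfib at 566 and 520, Hcrtr2 at 235 and 168, Barhl1 at 19.1 and 17.2, Pax6 at 102 and 79.1 and Zic1 at 471 and 329. Others parted the clusters. Gabra6, the GABA-A subunit typical of cerebellar granule cells, was at 356 and 379 CPM in neuron.5 but at 0.494 and 1.95 in neuron.4. Il1rapl2 had 6.36 and 45.4 CPM in neuron.5, Cdh23 had 12.7 and 9.40 and Fam107b had 25.4 and 59.5. Of the 6 pan-neuronal markers, summing to 15284 and 17652 CPM in neuron.4, none was at 0. The 6 cerebellar granule cell markers summed to 21.2 and 47.1 CPM, and the 7 Purkinje cell markers to 738 and 867, below the other neurons (1288 and 1547). The 14 motor neuron markers summed to 4537 and 5062 CPM, against 2309 and 2511 in the other neurons, nearly all of it from Nrg1 (4524 and 5047 CPM), which many neurons express. Isl2, Mnx1 and Phox2a were at 0 in both libraries, and the cholinergic markers were as given above. Beyond neuronal and glutamatergic markers no list named the cluster, and no narrower type is given to it here.

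**Figure D2:**
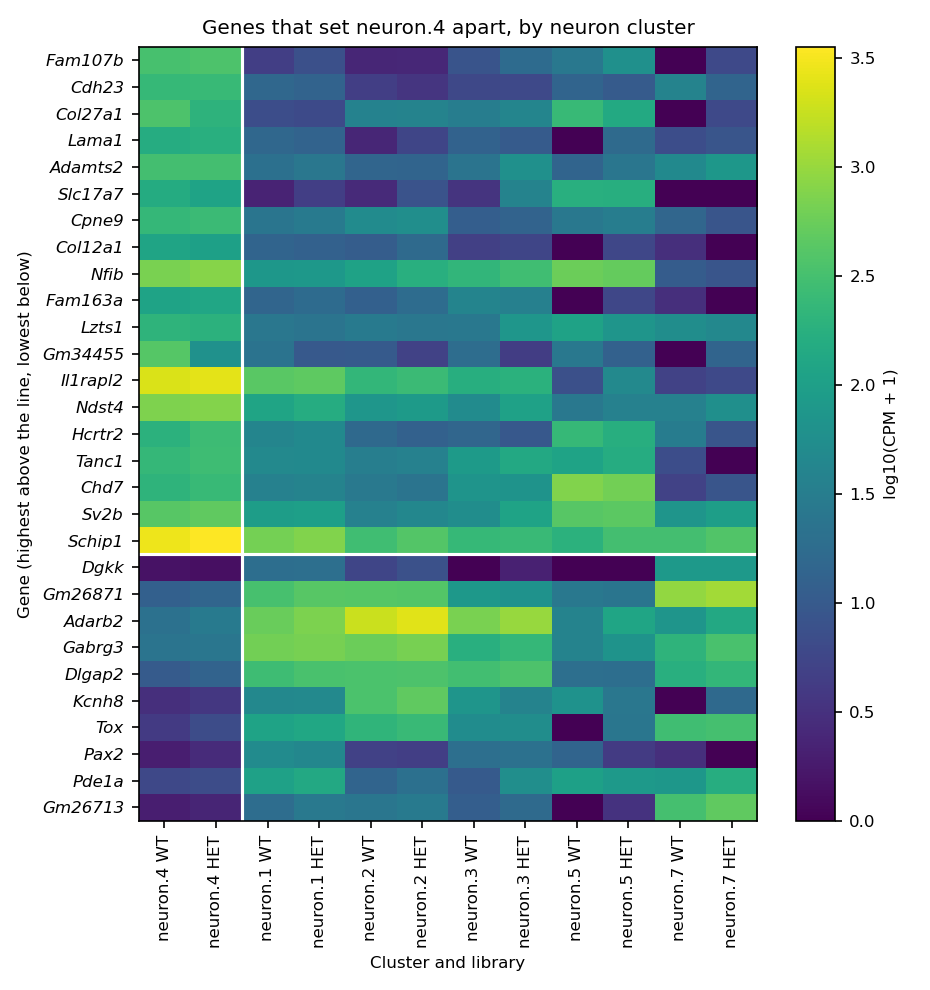
Heat map of log10(CPM + 1) for leading genes (above the white line) and the lowest genes (below it), one row per gene, in neuron.4 and 5 other neuron clusters (those with 30 nuclei or more per library), one column per cluster and library. Fam107b was at 328 and 359 CPM in neuron.4 and at 25.4 and 59.5 in neuron.5, and Slc17a7 and Nfib were also bright in neuron.5.

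Fam107b divided the nuclei of neuron.4 in similar shares in both libraries. At least 2 UMIs of it were found in 72 of 114 WT nuclei (63.2%, 53.6 to 72.0) and 214 of 339 HET nuclei (63.1%, 57.7 to 68.3), and none in 26 (22.8%) and 89 (26.3%). Nuclei with at least 2 UMIs were deeper, with medians of 21752 and 16713 UMIs, than those with none (7975 and 8557), and a deeper nucleus has more chance of showing a UMI. Among nuclei with at least 5000 UMIs the shares were 66.7% and 65.2%. Some genes went with Fam107b in the same way in each library. Il1rapl2 was at 2550 CPM in WT nuclei with at least 2 UMIs of Fam107b and 530 in those with none, and at 3001 and 638 in the HET. Others were higher where Fam107b was not found. Htr2c, the serotonin receptor 2C, was at 102 CPM in WT nuclei with at least 2 UMIs of Fam107b and 705 in those with none, and at 127 and 837 in the HET. Neuron.4 as a whole had 180 (WT) and 260 (HET) CPM of Htr2c, and the other neuron clusters 720 and 761. Nuclei without Fam107b were thus near the Htr2c level of the other neurons. Kirrel3, a synaptic adhesion gene, showed log2 ratios of −1.58 and −1.67 and Prkg1, the cGMP-dependent protein kinase, of −2.11 and −2.23. Slc17a7 (−0.24 and −0.29) and Nfib (0.20 and 0.05) differed little between the classes. These genes were ranked within the same nuclei that the classes came from, so they describe the classes and were not tested.

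**Figure D3:**
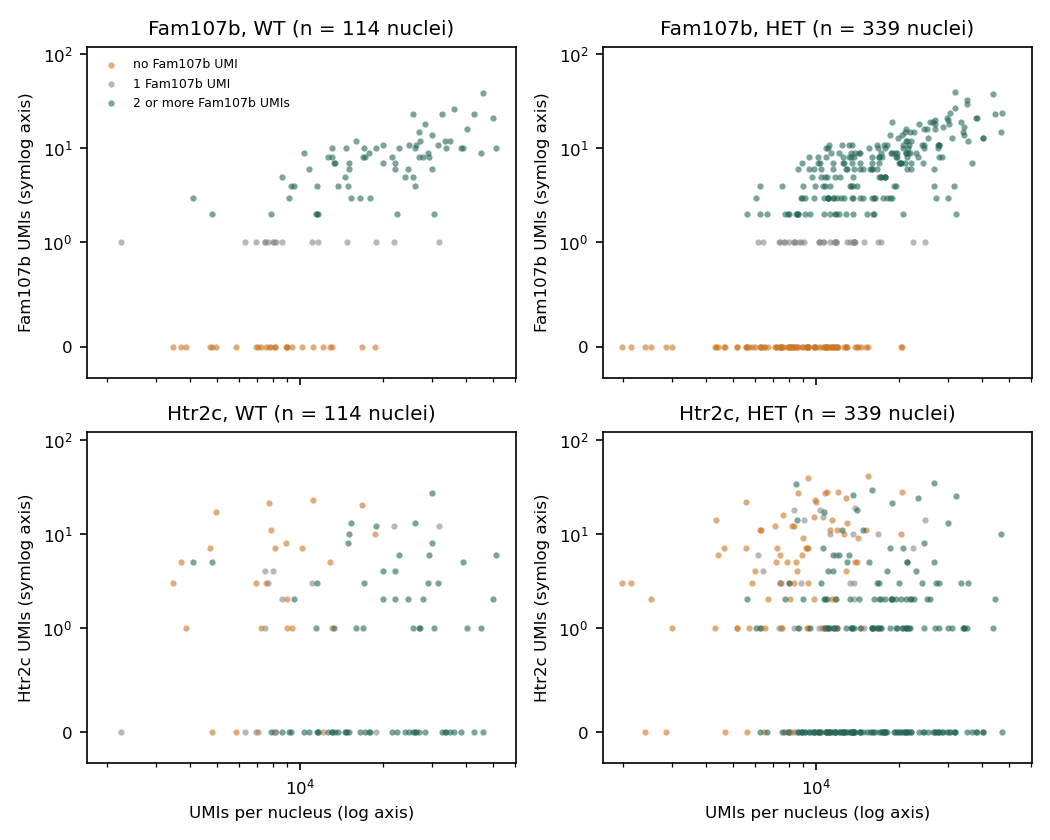
UMIs of Fam107b (top) and Htr2c (bottom), on a symmetric log axis with 0 shown, against UMIs per nucleus (log axis) in the 114 WT (left) and 339 HET (right) nuclei of neuron.4, one point per nucleus, coloured by its Fam107b UMIs (none, 1, at least 2). Nuclei with at least 2 UMIs of Fam107b lie mostly to the right, with medians of 21752 (WT) and 16713 (HET) UMIs against 7975 and 8557 for those with none.

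HETs and WTs were then compared within neuron.4. The cluster made up 1.23% of WT nuclei (114 of 9259, 1.02 to 1.48) and 3.76% of HET nuclei (339 of 9022, 3.37 to 4.17), a ratio of 3.05 (2.46 to 3.81). As a share of neuron clusters the percentages were 1.86% and 6.29%. The doublet score that the submitters deposited, which rates how likely a barcode is to hold more than 1 nucleus, moved with this difference. Of the HET nuclei of neuron.4, 201 of 339 (59.3%, 53.9 to 64.6) were among the highest 10% of scores of their library, and of the WT nuclei 8 of 114 (7.02%, 3.08 to 13.4). In neuron.1 these shares were 9.95% and 11.1%. High shares were not limited to neuron.4. Neuron.8 had 100% of 9 HET and 70.5% of 44 WT nuclei, and the cluster labelled fibro 76.9% and 47.0%. In neuron.2, neuron.3, neuron.5 and neuron.7 the HET shares lay between 3.03% and 10.8%. The cut for the highest 10% differed between the libraries, at 0.304 in the WT and 0.272 in the HET. Over the WT cut were 8 of 114 WT and 60 of 339 HET nuclei of neuron.4, and over the HET cut 22 and 201. Without the highest 10% of each library, 106 WT and 138 HET nuclei were left and the ratio of shares was 1.34 (1.03 to 1.74). A run of Scrublet on each library called 0 nuclei of neuron.4, but with 0.259% of all WT and 0.166% of all HET nuclei called it did not work as a check. Its scores did not repeat the deposited ones: 12.7% of HET and 5.26% of WT nuclei of neuron.4 were among the highest 10% of Scrublet scores, with medians of 0.0157 and 0.0495. Whether the score accounts for the larger share was not tested.

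Scn1a (chr2:66270778-66440840, minus strand), the mutated gene, was at 473 CPM in the WT and 536 in the HET in neuron.4, a log2 ratio of 0.18 (0.08 to 0.29), and the other neuron clusters gave 0.19. A 3′ count of all transcripts does not tell the knock-in allele from the wildtype one, so the value does not check the genotype labels. Of 12 voltage-gated sodium channel genes with at least 50 UMIs, 8 were higher and 4 lower in the HET, with a median log2 ratio of 0.15 and none past 2-fold. Scn2a and Scn8a had log2 ratios of −0.02 and −0.13. Across all 10923 genes the median was −0.06, with 44.0% higher in the HET and 56.0% lower. At least 2-fold higher were 302 genes (2.76%) and at least 2-fold lower 314 (2.87%). Of 5436 genes with at least 200 UMIs in neuron.4, 75 and 50 were past 2-fold. Without the highest 10% of doublet scores, 135 and 224 of 8476 genes were.

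The genes highest in the HET over the WT included several that stood out from the same ratio in other neurons. Tmem132c (chr5:127241808-127565793, plus strand), a neuronal transmembrane protein gene, had 23 UMIs in WT nuclei and 269 in HET nuclei, or 11.4 and 52.3 CPM, a log2 ratio of 2.20 (1.59 to 2.89), against 0.37 in the other neurons. Its neighbour on the opposite strand, Tmem132cos, had a ratio of 1.57, and reads of the pair are told apart only if the counting used strand. Nrp1, the co-receptor for semaphorins and VEGF, was at 23.7 CPM in the WT and 72.6 in the HET, a log2 ratio of 1.61 (1.18 to 2.08), against −0.04. Bcl2, the inhibitor of apoptosis, was at 16.3 and 47.3 CPM, a log2 ratio of 1.54, against −0.09. Prkg1 (chr19:30564489-31765033, minus strand) rested on more counts, 473 UMIs in WT and 2975 in HET nuclei, or 234 and 579 CPM. Its log2 ratio was 1.31 (1.17 to 1.45), against 0.16. Within nuclei with at least 2 UMIs of Fam107b the ratios of Prkg1, Tmem132c and Nrp1 were 1.23, 2.14 and 1.63. Within those with none Prkg1 had 1.35, and Tmem132c (2.35, interval 0.72 to 4.67) and Nrp1 (1.79, interval 0.69 to 3.15) rested on 3 and 7 WT UMIs. Without the highest 10% of doublet scores in each library the ratios were 1.08 for Prkg1, 2.09 for Tmem132c, 1.35 for Nrp1 and 1.67 for Bcl2. HET nuclei among the highest scores had 640 CPM of Prkg1, 81.3 of Nrp1 and 51.8 of Bcl2. The other HET nuclei had 463, 56.1 and 38.7 CPM. Tmem132c differed little between them, at 52.7 and 51.6 CPM.

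Among the other high genes, Cpa6 and St18 differed more with the doublet score. St18, Mobp and Alas2 had similar ratios in the other neurons. Cpa6, a carboxypeptidase of the extracellular space, was at 21.2 CPM in the WT and 65.4 in the HET, a log2 ratio of 1.62, but HET nuclei among the highest doublet scores had 82.8 CPM of it and the other HET nuclei 32.5. Without the highest 10% of scores in each library its ratio was 0.49. St18, a zinc finger factor abundant in oligodendrocytes, had a ratio of 1.36 in neuron.4 and 1.48 in the other neurons. HET nuclei among the highest scores had 89.7 CPM of St18 and the other HET nuclei 35.9. Mobp, a myelin gene, had 1.45 and 1.20. The 7 oligodendrocyte markers summed to 351 CPM in the WT and 521 in the HET in neuron.4, below the other neurons (589 and 702), and 0 of them were at 0 in either library. Alas2, the erythroid enzyme of heme synthesis, had 1.26 in neuron.4 and in the other neurons alike. Rerg, Kitl and Sorbs2os completed the list, with ratios of 1.35, 1.34 and 1.25.

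Among the genes lowest in the HET, several were also low in the other neurons. Mettl18, a histidine methyltransferase gene, was at 193 CPM in the WT and 23.7 in the HET, a log2 ratio of −3.02, and −2.23 in the other neurons. Ttr, which encodes transthyretin and is made in the choroid plexus, had 248 UMIs in WTs and 103 in HETs, a log2 ratio of CPM of −2.61, and −3.01 in the other neurons. The 5 choroid plexus markers, with Aqp1 at 0 in both libraries and Folr1 at 0 in the WT, summed to 160 and 63.0 CPM, against 315 and 97.0 in the other neurons. It was found in 88.6% of WT and 25.7% of HET neuron.4 nuclei and in 86.8% and 23.3% of oligodendrocyte nuclei, so a like share was seen in cells that should lack it. Bc1, a neuronal non-coding RNA, was at 1715 and 400 CPM, a log2 ratio of −2.10, and −2.09 in the other neurons. Lamb3, a laminin beta chain, was at 149 and 21.6 CPM (−2.78, against −0.80 in the other neurons). Prtg, protogenin, had 168 and 77 UMIs (−2.47, against −0.69). Tubb3, neuronal beta tubulin, was at 134 and 52.1 CPM, and 78.9% and 50.7% of nuclei had a UMI of it. Cdhr1, Tmem80, Zfp74, Nfic, Cdkl3 and Adamtsl5 had log2 ratios between −2.32 and −1.39. Some of these genes also differed with the doublet score. HET nuclei among the highest scores had 11.6 CPM of Lamb3, 24.4 of Cdhr1 and 15.2 of Tmem80. The other HET nuclei had 40.4, 42.6 and 25.2 CPM. Zfp74 went the other way, at 23.5 and 14.6 CPM.

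**Figure D4:**
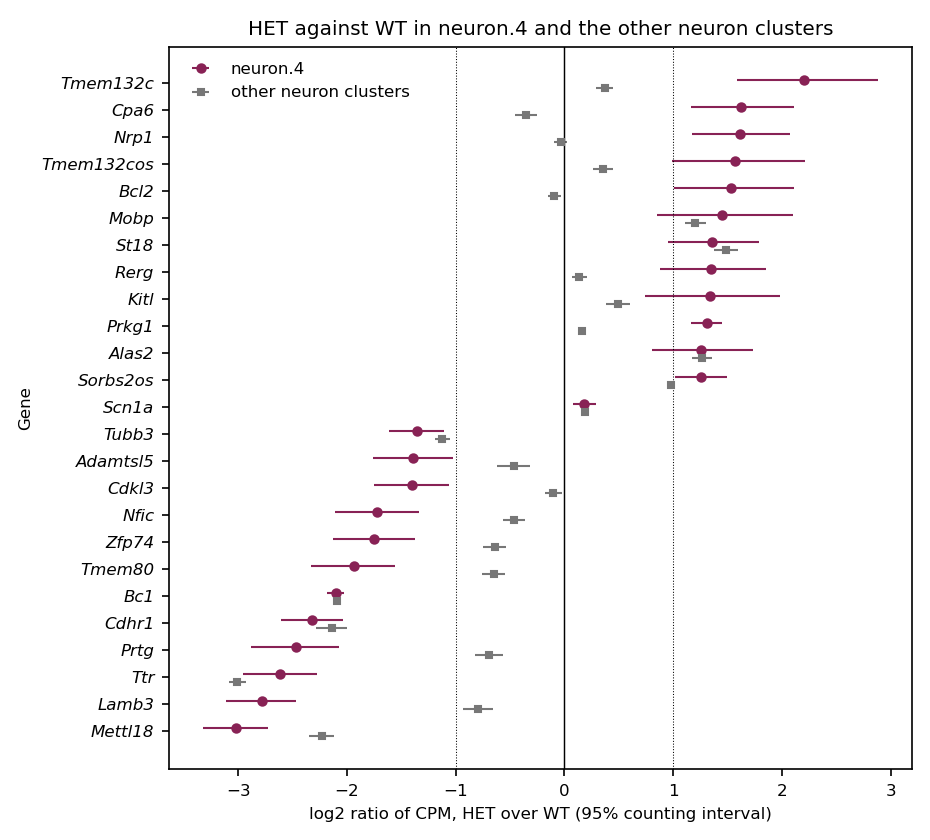
Log2 ratio of CPM, HET over WT, with 95% counting intervals, for Scn1a and the 12 highest and 12 lowest named genes, in neuron.4 (circles) and the other neuron clusters pooled (squares), with dotted lines at 2-fold. Tmem132c (2.20 against 0.37) and Prkg1 (1.31 against 0.16) part from the other neurons, whereas Bc1 (−2.10 against −2.09) and Alas2 (1.26 in both) do not.

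Most members of several groups of housekeeping genes were lower in the HET. Of 79 ribosomal protein genes, 78 were lower and 1 higher (Rpl4), against 56.0% lower over all genes. Past 2-fold lower were 14 of the 79, against 2.87% of all genes. The median log2 ratio of the 79 was −0.73, and −0.84 in the other neurons. Without the highest doublet scores it was −0.67 over 76 genes. Of 76 respiratory chain genes, 69 were lower, 8 of them past 2-fold, with a median of −0.55 (−0.61 in the other neurons). Cox5b, a cytochrome oxidase subunit, was at 45.9 and 18.1 CPM, and Cox4i1 at 199 and 111. Of 31 glycolysis and TCA cycle genes, 26 were lower, none past 2-fold, with a median of −0.21. Of 17 heat shock and ubiquitin genes, 13 were lower, with Hspa8, a chaperone, at 88.4 and 51.9 CPM. The highest ratio of the list was that of Hsph1, at 13.8 and 20.8 CPM. The summed level of the list was higher in the HET (3656 and 4797 CPM), as in the other neurons (3571 and 4302 CPM). The sum is weighted to its most abundant genes, and most members went the other way. The median share of UMIs from ribosomal protein genes was 0.379% per nucleus in the WT and 0.254% in the HET.

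Gene length went with these ratios. In the shortest 20% of genes by genomic length (median 6.73 kb) the median log2 ratio was −0.31, and in the longest 20% (median 172 kb) it was 0.11, with −0.36 and 0.12 in the other neurons. Of 2159 genes in the shortest 20%, 160 were at least 2-fold lower and 70 at least 2-fold higher. Of 2159 in the longest 20%, 17 were lower and 77 higher. Over all genes 2.87% were at least 2-fold lower and 2.76% higher. What part gene length has in the ratios of the lists was not tested.

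In most synaptic and channel groups more members were higher in the HET than lower, though not among ionotropic glutamate receptor genes (8 higher, 9 lower), against 44.0% higher and 2.76% at least 2-fold higher over all genes. Of 6 metabotropic glutamate receptor genes, 5 were higher, with a median of 0.45, and Grm3 was at 104 and 153 CPM. Of 15 GABA-A and glycine receptor genes, 10 were higher, and 2 were past 2-fold higher, Gabra2 (64.7 and 146 CPM) and Gabrg1 (13.8 and 29.0 CPM). The glycine receptor subunit Glra1 was at 192 and 105 CPM. Of 30 other potassium channel genes, 18 were higher with a median of 0.07, and Kcnj6, a G protein-gated inward rectifier, was at 130 and 265 CPM. HET nuclei among the highest doublet scores had 166 CPM of Gabra2 and 289 of Kcnj6, and the other HET nuclei 109 and 221. Of 25 synaptic vesicle genes and 25 synaptic adhesion genes, 16 and 18 were higher, each with a median of 0.16 and none past 2-fold. Of 6 immediate early genes, 3 were higher and 3 lower. Junb was at 18.3 CPM in the WT and 4.67 in the HET, on 37 and 24 UMIs. Of 6 Hox genes, 4 were lower, with Hoxb2 at 13.8 and 5.45 CPM, and the other neurons had a median of −0.78 against −0.41 here.

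Of 20 genes that the study named as higher in HETs, 19 were higher in neuron.4, with a median log2 ratio of 0.37, and 0.34 in the other neurons. Of 34 that it named as lower, 34 were lower, with a median of −0.77, and −0.90 in the other neurons. The study chose these genes on the same libraries, so they are not independent evidence of direction.

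**Figure D5:**
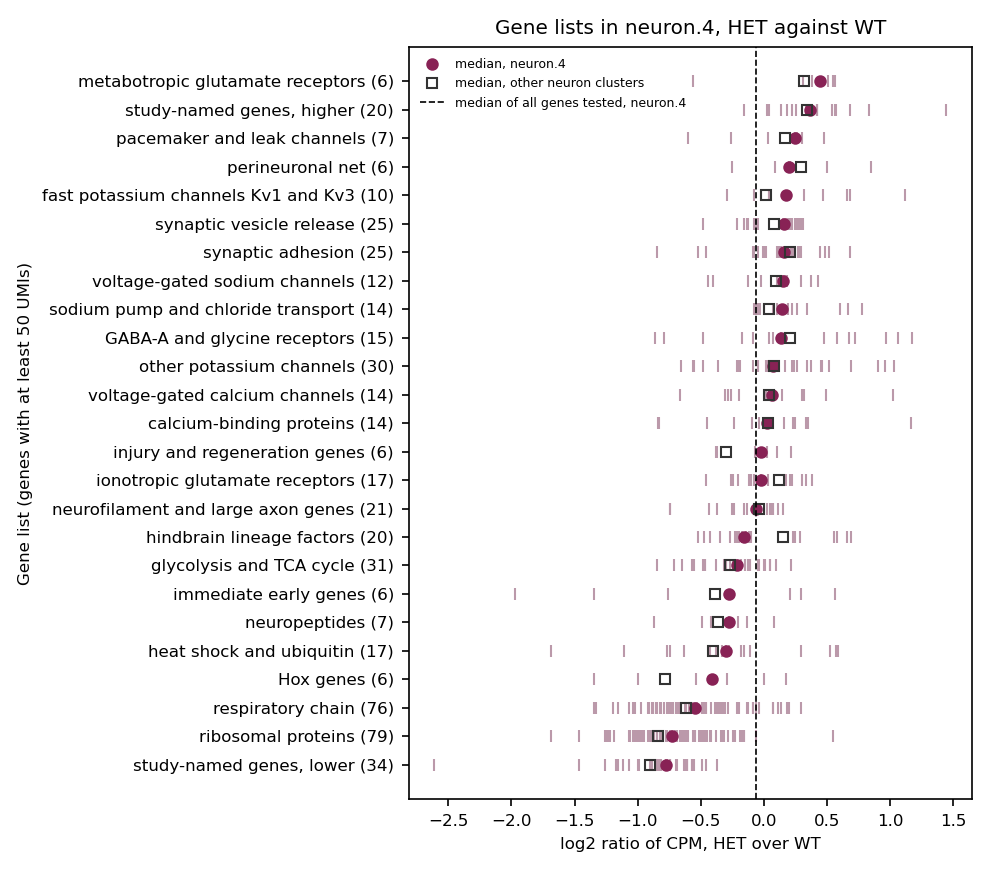
Log2 ratio of CPM, HET over WT, for the genes of each list with at least 50 UMIs (ticks, with their number in brackets), with the median in neuron.4 (circles) and in the other neuron clusters pooled (squares) and a dashed line at the median of all genes. Ribosomal protein genes lay at −0.73 and −0.84, respiratory chain genes at −0.55 and −0.61, and all genes tested at −0.06 in neuron.4.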

How the data were processed

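The deposited count table holds raw UMI counts per gene and nucleus, made by the authors with Cell Ranger on mm10, without normalization. The deposited cell table holds cluster labels and groups from Seurat 4.1, the percent of counts from mitochondrial and ribosomal genes that the authors computed per nucleus, and their deposited doublet score. All 25556 genes and 18281 nuclei were used as deposited.

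UMIs were summed per cluster and library and scaled to CPM with all genes in the total. Log2 ratios have exact conditional binomial intervals and shares exact Clopper-Pearson intervals (95%), with SciPy 1.17.1, and cover counting error only. Genes with at least 50 UMIs in neuron.4 over both libraries were compared. No p-value was computed, since there is 1 library per genotype. Named genes were the 20 highest and 10 lowest of neuron.4 against the other neuron clusters, ranked by the library with the weaker ratio (at least 200 UMIs in each library), the 12 highest and 12 lowest of HET over WT (at least 200 UMIs, a UMI in at least 20% of nuclei of the higher library, no unnamed gene models), Scn1a and the extremes of each list. Some genes that the rule names are not reported here. Genes outside this rule were named after their values were seen. Cluster, gene lists and rules were chosen with earlier results of these data known. Gene positions are from GENCODE vM21 and promoters from RefSeq. The ratio computation was tested on simulated data. Alternatives included other UMI minimums, mean CPM over nuclei, a shared range of depth, equal weights of nucleus classes and removal of high doublet scores.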

Additional observations from a re-analysis of the deposited data

Results flagged for a closer look

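For 7 of 122 named or listed genes the HET over WT log2 ratio in neuron.4 and in the other neuron clusters pooled had opposite signs, with both 95% counting intervals off 0. None of these differences was tested, since there is 1 library per genotype. Higher in neuron.4 and lower elsewhere were Cpa6 (1.62, against −0.35), Bcl2 (1.54, against −0.09) and the potassium channel gene Kcnc4 (1.12, against −0.30, on 12 WT and 66 HET UMIs). Lower in neuron.4 and higher in the pooled other neurons were the leading genes Slc17a7 (−0.43, against 2.53) and Col27a1 (−0.86, against 0.49). The same held for Zic1 (−0.52, against 0.65) and for Gad2 (−0.95, against 0.08). Zic1 was high in neuron.5 and lower in the HET there, as given above. Neuron.5 held 42 WT and 332 HET nuclei and so weighs more in the HET pool. Within single clusters, the ratio of Slc17a7 was 1.48 in neuron.1 (204 UMIs), 3.96 in neuron.3 (138 UMIs) and −0.06 in neuron.5 (237 UMIs), and in oligodendrocytes it was at 2.91 CPM in the WT and 10.5 in the HET.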

How the results depend on the processing

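No paired analysis was possible because there is 1 library per genotype. The 302 genes at least 2-fold higher and 314 lower became 75 and 50 with a minimum of 200 UMIs and 1202 and 2057 with a minimum of 1 UMI. They became 165 and 102 of 3641 in nuclei with no UMI of Fam107b. The higher count was 135 without the highest 10% of doublet scores. In nuclei with no Fam107b UMI the list medians were −0.33 (respiratory chain, 21 genes) and −0.90 (ribosomal proteins, 14 genes), and Lamb3 (1.50) and Nfic (1.26) reversed, on few UMIs. The share of neuron.4 was 1.86% (WT) and 6.29% (HET) of neuron clusters and 3.56% and 11.7% of nuclei with at least 10000 UMIs. Without the highest doublet scores the HET share was 1.70% and the ratio 1.34, and the HET median was 10914 UMIs. The glutamatergic share was 50.0% and 45.4% with at least 3 UMIs and 3 times, and 77.2% and 73.7% had at least 1 UMI of Fam107b. The classes of Fam107b and the removal by doublet score from shares were chosen after seeing the data. The cause of these changes was not tested. Of 294 list medians, 286 stayed within the spread and 8 moved. None changed sign among the lists whose spread lay off 0, and sign changes of the other lists were not counted. Of 300 single-gene HET over WT values, 271 stayed, 27 moved and 2 reversed, and of 180 identity values 95 stayed, 85 moved and 0 reversed. Some alternatives could not move a value. The 25 single-gene HET over WT values under each other UMI minimum, and under removal of Scrublet doublets, equal the main values by construction. Removal of Scrublet doublets took out 0 nuclei of neuron.4, so its 25 list medians were unchanged too.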

Other observations

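Fat2, a giant cadherin, is one of the cerebellar granule cell markers listed above. It was found in 13.2% of WT and 32.2% of HET nuclei of neuron.4, and in 4.62% and 16.1% after thinning to 5000 UMIs. In the other neurons the shares were 0.516% and 4.31%. Oligodendrocytes had it in 0.113% and 1.18% of nuclei, at 0.685 and 4.82 CPM. Its log2 ratio of HET over WT was 1.67 in neuron.4 and 2.71 in the other neurons. The perineuronal net genes Bcan (235 and 197 CPM, against 80.0 and 80.3) and Hapln1 (34.6 and 62.4 CPM, against 13.9 and 21.4) were at least 2-fold above the other neurons in both libraries. Nrg1, a ligand of ErbB receptors, was at 4524 and 5047 CPM, against 2248 and 2469.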
